A study of Mus musculus with 6 samples.

Results

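The 10 genes described here encode the ID proteins ID1, ID2 and ID3 and the receptors and SMAD proteins of bone morphogenetic protein (BMP) signaling. The genes were taken by symbol from a list (*Id1*, *Id2*, *Id3*, *Smad1*, *Smad3*, *Smad5*, *Smad6*, *Smad7*, *Bmpr1a* and *Bmpr2*), and all 10 were present among the 12353 genes of the deposited table. Levels were measured by RNA sequencing of whole gastrocnemius, a calf muscle, from 3 Nogo-/- mice, which lack all Nogo isoforms through a knockout of *Rtn4*, and from 3 wild-type (Nogo+/+) mice. Each mouse gave 1 poly(A)-selected library. No injury or drug is given for any of these muscles, and the age and sex of the mice are not given in the sources used here. Libraries are called Samples 4 to 6 (Nogo-/-) and Samples 1 to 3 (Nogo+/+), and the numbers pair no mice. Values are FPKM, the fragments of a gene scaled to its transcript length and to the mapped fragments of the library. This puts genes and mice on a rough common scale. FPKM and their means, sums and ratios are given as deposited, whereas log2 fold changes come from quantile-normalized values. They can thus differ slightly, for small differences even in sign.

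ID proteins are small helix-loop-helix proteins without a DNA-binding region. They bind E proteins and keep them from pairing with tissue-specific factors such as MyoD, and in muscle precursor cells they hold back differentiation. Their genes are classical targets of BMP signaling, in which a ligand joins type I receptors such as BMPR1A with the type II receptor BMPR2, the type I receptor phosphorylates SMAD1 and SMAD5, and these enter the nucleus with SMAD4. SMAD3 carries the signal of the TGF-β and activin branch, and SMAD6 and SMAD7 are inhibitory SMADs that are themselves induced by the pathway. In adult skeletal muscle BMP signaling favors fiber mass, and *Id1* and *Id3* are also strongly expressed by endothelial cells.

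The libraries held about 13475000 to 14440000 fragments, as recovered from the steps between low FPKM values, with close ranges in Nogo-/- (13740000 to 14440000) and Nogo+/+ muscles (13475000 to 14415000). The knockout was evident in each library labelled as such, with 0.312 to 0.423 FPKM of *Rtn4* in Nogo-/- and 414 to 429 FPKM in Nogo+/+ muscles. Muscle fiber markers such as *Ckm* and *Acta1* were among the most abundant transcripts in every library. Sample 6 stood apart in skin genes, with a summed level of 230 FPKM over 8 keratinocyte markers against 5.96 to 16.2 FPKM in the other 5 libraries, and Sample 4 had the highest sum of adipocyte markers, at 927 FPKM against 417 to 591 FPKM in the others.

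Among the 10 genes *Id1* rose and *Smad3* fell in Nogo-/- muscles, and 8 did not pass the test. Differences were tested with limma on log2 values over all genes, and a gene is described as changed at an adjusted p under 0.05 (Benjamini-Hochberg). Of all 12353 genes, 573 (4.64%) changed, of which 233 (1.89%) were higher and 340 (2.75%) were lower in Nogo-/- muscles, and without quantile normalization 302 were higher and 234 lower. The 2 changed genes among 10 stand beside that share. At an unadjusted p under 0.05 there were 4 of the 10 genes, against 20.5% of all genes. The FPKM of the genotypes did not overlap for 5 of the 10, with *Id1* and *Id3* higher and *Id2*, *Smad3* and *Smad5* lower, against 25.9% of all genes. Without Sample 6, the library with the skin genes, *Id1* and *Smad3* were again the 2 changed genes. Without Sample 2, 3, 4 or 5 only *Id1* passed, and without Sample 1 *Id3* passed beside *Id1* and *Smad3*. The median log2 fold change of the 10 genes was −0.06, beside −0.0067 for all genes.

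**Figure D1:**
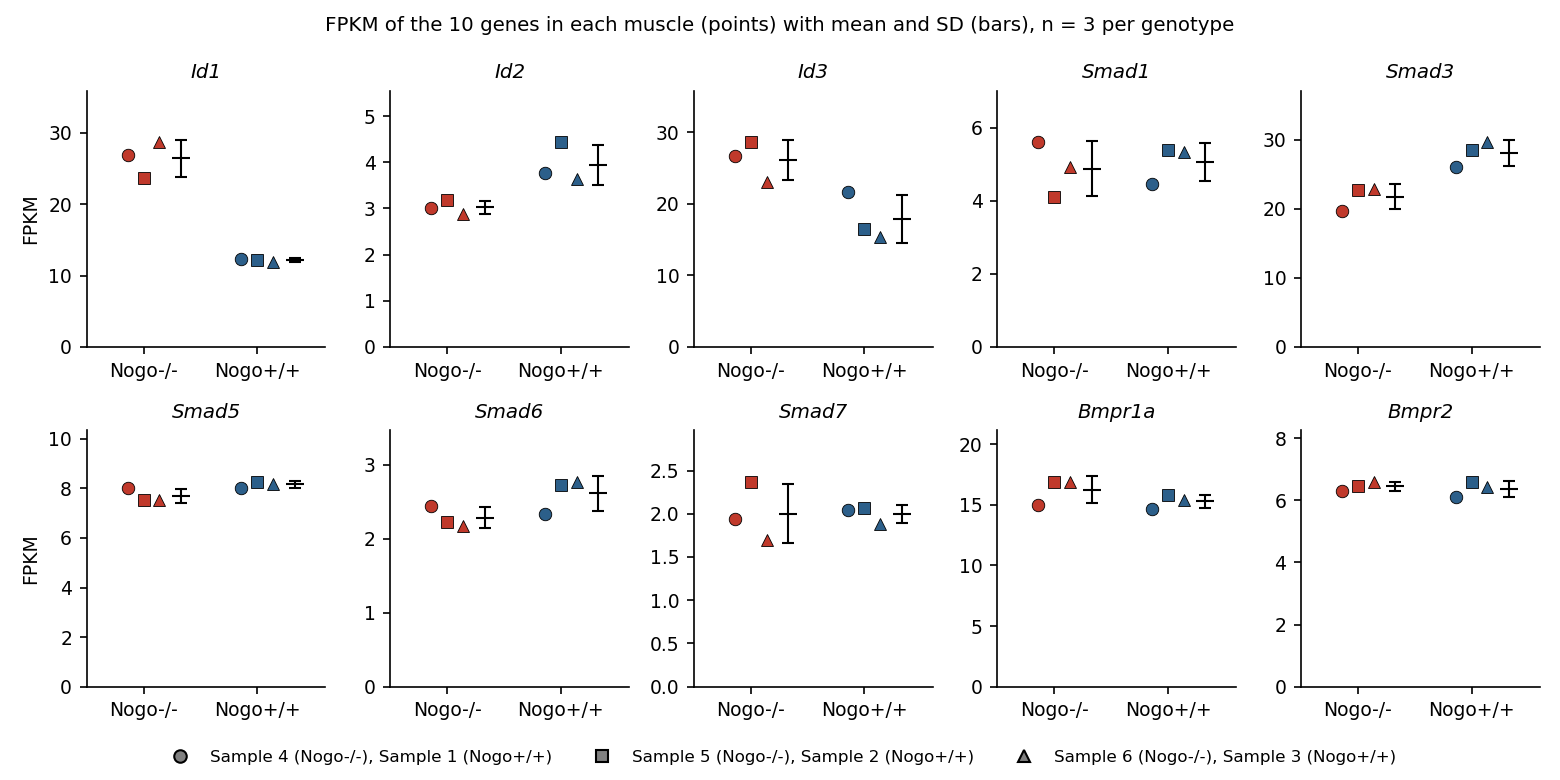
FPKM of the 10 genes (vertical axes, each from 0) in single muscles (points, 3 per genotype, with Nogo-/- in red on the left and Nogo+/+ in blue on the right) with the mean and SD beside them. *Id1* lies at 23.6 to 28.7 FPKM in Nogo-/- and at 11.9 to 12.4 FPKM in Nogo+/+ muscles, whereas the points of *Smad7*, *Bmpr1a* and *Bmpr2* overlap.

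Expressed in FPKM over both genotypes, *Smad3* was the most abundant of the 10 genes, above 79.8% of all genes in the table, followed by *Id3* (77.6%), *Id1* (75.2%) and *Bmpr1a* (71.1%). *Smad5* (54.0%), *Bmpr2* (48.3%) and *Smad1* (41.6%) lay near the middle of the table, and *Id2* (32.9%), *Smad6* (24.7%) and *Smad7* were the lowest, in that order. In the mean of the Nogo+/+ muscles *Bmpr1a* was above *Id1*, at 15.3 against 12.2 FPKM, without overlap of their values, and in the Nogo-/- muscles *Id1* was above *Bmpr1a*, at 26.4 against 16.2 FPKM. *Id1* and *Id3* could not be ordered in Nogo-/- muscles beyond the spread between mice.

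*Id1*, on chromosome 2 from 152736251 to 152737410 of GRCm38, showed the largest difference of the 10 genes. It had 26.9, 23.6 and 28.7 FPKM in Samples 4, 5 and 6 from Nogo-/- mice, and 12.4, 12.2 and 11.9 FPKM in Samples 1, 2 and 3 from Nogo+/+ mice. Every Nogo-/- muscle was thus above every Nogo+/+ muscle, and the lowest Nogo-/- value was still well above the highest Nogo+/+ value. The mean was 26.4 ± 2.59 FPKM in Nogo-/- and 12.2 ± 0.242 FPKM in Nogo+/+ muscles (SD, n = 3 each), a ratio of 2.17. The log2 fold change was 1.01 (standard error 0.08, 95% interval 0.82 to 1.20, adjusted p = 4.39e-04 from limma). It remained past the threshold when any single mouse was left out, at 0.93 to 1.09 (adjusted p from 5.26e-04 to 0.00550). The smallest of these values, 0.93 (adjusted p = 9.48e-04), was obtained without Sample 6, the library with the skin genes. As whole muscle was sequenced, more cells of a type that expresses *Id1* and more *Id1* RNA per cell cannot be told apart.

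*Id3*, the paralog that is most often expressed together with *Id1*, was higher in Nogo-/- muscles by a smaller margin. It lies on chromosome 4 from 136143497 to 136145755 and had 26.7, 28.7 and 23.1 FPKM in Samples 4 to 6 (Nogo-/-) and 21.7, 16.6 and 15.4 FPKM in Samples 1 to 3 (Nogo+/+). The groups did not overlap, but Sample 1 among the Nogo+/+ muscles came close to Sample 6 among the Nogo-/- muscles. The log2 fold change was 0.49 (standard error 0.12, 95% interval 0.21 to 0.76), and the adjusted p of 0.0614 from limma was short of the threshold. The gene passed when Sample 1 was left out, at 0.62 (adjusted p = 0.0196), and when limma weighted the libraries by their quality, at 0.54 (adjusted p = 0.0395). It did not pass without any of the other 5 mice, with adjusted p-values of 0.0675 to 0.212.

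*Id2*, which is induced by TGF-β family signals in many cells and is the least abundant of the 3 genes here, differed in the opposite direction. It lies on chromosome 12 from 25093799 to 25097140. It had 3.00, 3.18 and 2.88 FPKM in Samples 4 to 6 (Nogo-/-) and 3.76, 4.44 and 3.63 FPKM in Samples 1 to 3 (Nogo+/+). All Nogo-/- values were below all Nogo+/+ values, and the 3 Nogo-/- muscles lay within 0.30 FPKM of one another. The log2 fold change was −0.33 (standard error 0.09, 95% interval −0.53 to −0.12, adjusted p = 0.0844 from limma), and it did not pass with any library left out. *Id4*, the remaining gene of the family, is not among the genes of the table, each of which reached 1 FPKM in at least 1 library.

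The summed level of the 3 ID genes was 56.6, 55.5 and 54.8 FPKM in Nogo-/- muscles and 37.8, 33.2 and 30.9 FPKM in Nogo+/+ muscles. The sum varied little among the Nogo-/- mice, with *Id1* highest and *Id3* lowest in Sample 6 and the reverse in Sample 5. *Id1* made up 47.5 ± 4.96% of the sum in Nogo-/- and 36.0 ± 2.98% in Nogo+/+ muscles (SD, n = 3 each), and *Id2* made up 5.43 ± 0.257% and 11.7 ± 1.71% of it in Nogo-/- and Nogo+/+ muscles. In Nogo-/- muscles the FPKM of *Id1* thus came near that of *Id3*, with an *Id1* to *Id3* ratio of 1.02 ± 0.210, against 0.694 ± 0.109 in Nogo+/+ muscles. No test was made on these sums and shares, as they combine genes chosen with their values known.

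**Figure D2:**
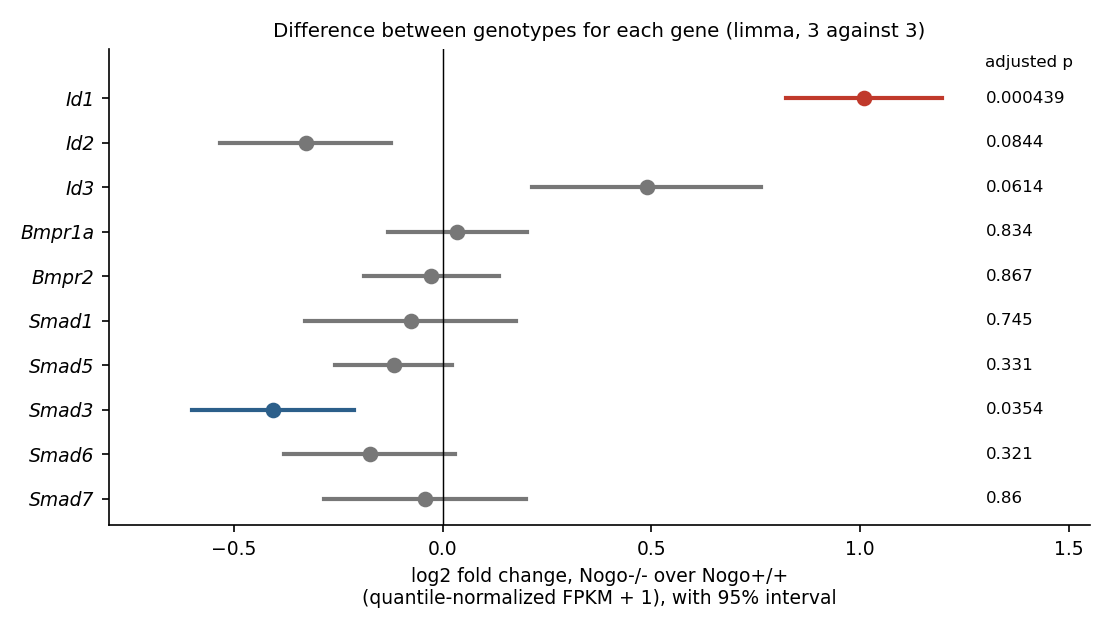
Log2 fold change of each of the 10 genes, Nogo-/- over Nogo+/+ (horizontal axis, points), with 95% intervals (lines) and the adjusted p from limma at the right, in red for a rise past the threshold, blue for a fall past it and grey otherwise. *Id1* stands at 1.01 and *Smad3* at −0.41, and the intervals of the receptors and of *Smad1*, *Smad5*, *Smad6* and *Smad7* all include 0.

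The receptor genes did not differ detectably. *Bmpr1a*, which encodes a type I receptor that phosphorylates SMAD1 and SMAD5, lies on chromosome 14 from 34410734 to 34503341. It had 15.0, 16.9 and 16.9 FPKM in Samples 4 to 6 (Nogo-/-) and 14.7, 15.8 and 15.4 FPKM in Samples 1 to 3 (Nogo+/+), and the groups overlapped. Its log2 fold change was 0.03 (95% interval −0.13 to 0.20, adjusted p = 0.834 from limma). *Bmpr2*, the gene of the type II receptor, lies on chromosome 1 from 59763400 to 59879014 and had 6.30, 6.45 and 6.60 FPKM in Nogo-/- and 6.09, 6.58 and 6.43 FPKM in Nogo+/+ muscles. Its log2 fold change was −0.03 (95% interval −0.19 to 0.13, adjusted p = 0.867 from limma), and its sign turned without quantile normalization, at 0.017. Both intervals exclude a change of the size seen for *Id1*, and they are among the narrowest of the 10 genes.

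The SMADs that BMP receptors phosphorylate did not pass the test either. *Smad1*, on chromosome 8 from 79338395 to 79399518, had 5.62, 4.11 and 4.92 FPKM in Samples 4 to 6 (Nogo-/-) and 4.47, 5.39 and 5.34 FPKM in Samples 1 to 3 (Nogo+/+). Both its highest and its lowest value came from a Nogo-/- muscle, and the log2 fold change was −0.08 (95% interval −0.33 to 0.17, adjusted p = 0.745 from limma). *Smad5*, on chromosome 13 from 56703010 to 56742377, had 8.01, 7.53 and 7.55 FPKM in Nogo-/- and 8.01, 8.28 and 8.19 FPKM in Nogo+/+ muscles. Its groups were separated only in the fourth digit, between Samples 4 and 1, and the log2 fold change was −0.12 (95% interval −0.26 to 0.02, adjusted p = 0.331 from limma). Together these genes came to 12.6 ± 1.00 FPKM in Nogo-/- and 13.2 ± 0.650 FPKM in Nogo+/+ muscles (SD, n = 3 each). *Smad9*, the third SMAD of this branch, is not among the genes of the table.

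*Smad3*, the SMAD of the TGF-β and activin branch and the most abundant SMAD gene in these muscles, fell. It had 19.7, 22.7 and 22.8 FPKM in Samples 4 to 6 (Nogo-/-) and 26.0, 28.6 and 29.7 FPKM in Samples 1 to 3 (Nogo+/+), without overlap. The mean was 21.8 ± 1.79 FPKM in Nogo-/- and 28.1 ± 1.90 FPKM in Nogo+/+ muscles (SD, n = 3 each), a ratio of 0.774. The log2 fold change was −0.41 (standard error 0.08, 95% interval −0.60 to −0.21, adjusted p = 0.0354 from limma). The call was lost without Sample 2, 3, 4 or 5, with adjusted p-values of 0.0664 to 0.145, and in limma without a mean-variance trend (adjusted p = 0.0725). The log2 fold change stayed between −0.47 and −0.33 in these leave-one-out fits. *Smad2*, which carries the same signals, had 3.48, 4.71 and 4.27 FPKM in Nogo-/- and 4.16, 4.29 and 4.13 FPKM in Nogo+/+ muscles (log2 fold change −0.05, adjusted p = 0.827 from limma). *Smad4*, the common partner of both branches, was at −0.18 (adjusted p = 0.229). Of the 8 SMAD genes of the mouse, 7 were in the table, and of these *Smad3* fell, none rose and 6 missed the threshold. None of the 7 had a log2 fold change above 0 (median −0.12), whereas 5919 of all 12353 genes did. The FPKM of *Smad3* was 1.74 ± 0.266 times the sum of *Smad1* and *Smad5* in Nogo-/- and 2.13 ± 0.0633 times that sum in Nogo+/+ muscles (SD, n = 3 each).

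The inhibitory SMADs, which are induced by BMP and TGF-β signals and limit them, were low in all muscles. *Smad6*, on chromosome 9 from 63953076 to 64022059, had 2.45, 2.23 and 2.17 FPKM in Samples 4 to 6 (Nogo-/-) and 2.34, 2.73 and 2.77 FPKM in Samples 1 to 3 (Nogo+/+). The groups overlapped through Samples 4 and 1, and the log2 fold change was −0.18 (95% interval −0.38 to 0.03, adjusted p = 0.321 from limma). *Smad7*, on chromosome 18 from 75367529 to 75395935, had 1.93, 2.37 and 1.69 FPKM in Nogo-/- and 2.05, 2.06 and 1.88 FPKM in Nogo+/+ muscles. Its highest and its lowest value were both from Nogo-/- muscles, and the log2 fold change was −0.04 (95% interval −0.29 to 0.20, adjusted p = 0.860 from limma).

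At this depth *Smad6* rests on at most about 89 to 119 fragments per library and *Smad7* on at most about 100 to 147, if all came from the longest annotated transcript. *Id2* rests on as few, with at most about 78 to 118 fragments, whereas *Id1* had up to 191 to 458 and *Smad3* up to 1389 to 2182.

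*Smad3* and *Smad6* are neighbors on chromosome 9, on the same strand and 195 kb apart, and their promoters are shown because *Smad3* fell while the groups of *Smad6* overlapped. Each line gives the 250 bases before the RefSeq start of the gene on the minus strand of GRCm38.p6, from chr9:63757995-63758244 for *Smad3* and from chr9:64022060-64022309 for *Smad6*, 5′ to 3′ in the direction of transcription. Capitals mark GGAGCC, a GC-rich element bound by SMAD1 and SMAD5.
Smad3: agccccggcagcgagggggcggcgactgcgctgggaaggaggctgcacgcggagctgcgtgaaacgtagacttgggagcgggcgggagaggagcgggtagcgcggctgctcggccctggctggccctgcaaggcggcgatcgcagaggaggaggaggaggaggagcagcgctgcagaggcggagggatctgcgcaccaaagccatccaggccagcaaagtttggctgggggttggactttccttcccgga
Smad6: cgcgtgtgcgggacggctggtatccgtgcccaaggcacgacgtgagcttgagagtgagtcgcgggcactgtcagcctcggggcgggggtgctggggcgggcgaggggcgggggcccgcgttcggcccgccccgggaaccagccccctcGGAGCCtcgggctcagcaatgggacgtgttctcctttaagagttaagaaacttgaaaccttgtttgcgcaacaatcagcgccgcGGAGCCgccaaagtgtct
Both windows were searched on both strands for 3 motifs, GGCGCC and GGAGCC (SMAD1 and SMAD5) and CAGAC (SMAD3 and SMAD4), none of which lies within another. The *Smad6* window holds GGAGCC at 2 places, starting 102 and 18 bases before the start, and the *Smad3* window holds none of the 3 motifs. Over all 32851 promoters of the same length, 9.59% hold GGCGCC, 26.0% hold GGAGCC and 42.2% hold CAGAC. RefSeq promoters are described for 8 of the 10 genes, and those of *Id1* and *Smad7* are left out. Their absence here does not show that these genes lack an annotated promoter or any of the 3 motifs. GGCGCC lies in a window of *Id2*, *Smad5*, *Bmpr1a* and *Bmpr2*, GGAGCC in one of *Id2*, *Id3*, *Smad5* and *Smad6*, and CAGAC in one of *Id3* and *Smad5*. The window of *Id3* lies wholly within annotated exon (250 of its 250 bases) and that of *Id2* in part (161 bases), as do windows of *Bmpr2*, *Smad1*, *Smad5* and *Bmpr1a* in part or whole. These matches describe letters and not bound sites.

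The genes around the 10 were described in 8 lists, from which some genes were taken out after their values were seen. The lists also take in genes of the 10, so that their counts partly repeat values given above. The list counts stand beside 1.89% of all genes that rose, 2.75% that fell and 20.5% at an unadjusted p under 0.05, and nothing particular to a list is read from them. Of the BMP ligand genes, 4 of 14 were in the table and none passed (1 at an unadjusted p under 0.05). *Bmp6* had 4.45, 4.26 and 3.84 FPKM in Nogo-/- and 4.74, 4.78 and 5.07 FPKM in Nogo+/+ muscles (log2 fold change −0.21, adjusted p = 0.144 from limma). *Bmp4* had 3.90, 4.08 and 3.27 FPKM in Nogo-/- and 3.24, 3.16 and 2.98 FPKM in Nogo+/+ muscles (log2 fold change 0.16, adjusted p = 0.318), and *Gdf10* was at 0.18 (adjusted p = 0.515). The ligands with the smallest p thus included differences in both directions, each well below that of *Id1*.

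Of 14 measured receptor genes of the BMP, activin and TGF-β branches, 1 fell and none rose (2.75% of all genes fell), with 5 at an unadjusted p under 0.05, against 20.5% of all genes. The one that fell was *Acvr2a*, a type II receptor shared by activins, myostatin and BMPs, with 6.03, 5.43 and 5.58 FPKM in Nogo-/- and 7.50, 7.48 and 7.07 FPKM in Nogo+/+ muscles. Its log2 fold change was −0.36 (standard error 0.07, adjusted p = 0.0220 from limma), and with single libraries removed it passed only without Sample 4. *Acvr1b*, the type I receptor of activins, had 16.0, 21.8 and 19.5 FPKM in Nogo-/- and 12.7, 12.5 and 14.6 FPKM in Nogo+/+ muscles without overlap, at a log2 fold change of 0.44 (adjusted p = 0.0655). The endothelial BMP9 receptor genes *Acvrl1* and *Eng* were at −0.10 (adjusted p = 0.713) and −0.35 (adjusted p = 0.248).

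Of 12 extracellular antagonists and modulators, 1 rose and 1 fell. *Crim1*, a transmembrane protein that binds BMPs, had 7.89, 8.32 and 7.59 FPKM in Nogo-/- and 6.05, 6.12 and 6.18 FPKM in Nogo+/+ muscles (log2 fold change 0.29, adjusted p = 0.0392 from limma). *Twsg1*, a secreted BMP-binding protein, had 8.84, 9.86 and 9.16 FPKM in Nogo-/- and 11.2, 11.8 and 11.6 FPKM in Nogo+/+ muscles (log2 fold change −0.33, adjusted p = 0.0321 from limma). Neither pair of groups overlapped, but *Crim1* passed in none and *Twsg1* in 1 of the 6 leave-one-out fits. *Chrd*, which encodes the antagonist chordin, was at 0.31 (adjusted p = 0.109). The median log2 fold change of these 12 genes was 0.21, the highest of the lists around the pathway.

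**Figure D3:**
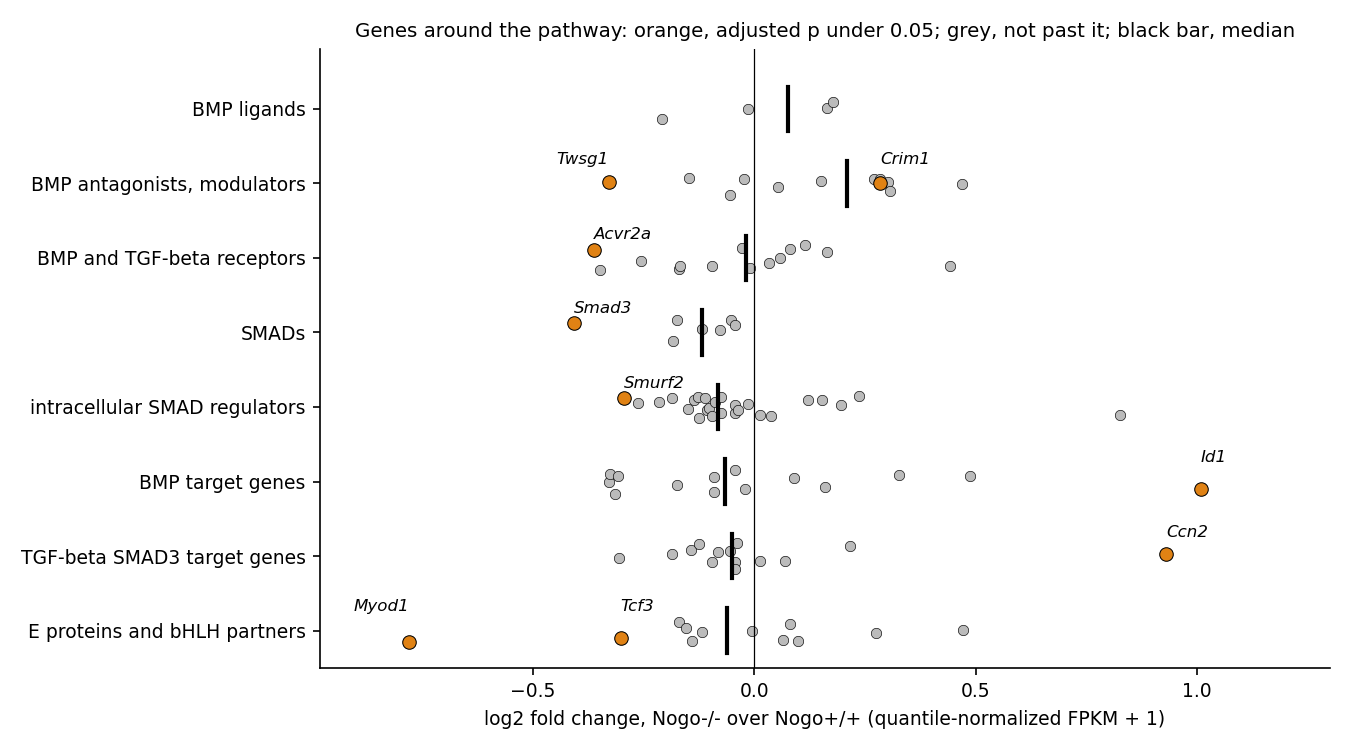
Log2 fold change, Nogo-/- over Nogo+/+ (horizontal axis), of the measured genes of 8 lists around the pathway (rows), with 1 point per gene, orange for an adjusted p under 0.05 and grey otherwise, and a black bar at the median of the list. *Id1* is the only orange point among the BMP target genes, at 1.01, and the medians of the 8 lists lie between −0.12 and 0.21.

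Of 26 measured intracellular SMAD regulators, 1 fell and none rose, while 25 missed the threshold. The one that fell was *Smurf2*, a ubiquitin ligase that marks SMADs and their receptors for breakdown. It had 5.49, 5.53 and 5.59 FPKM in Samples 4 to 6 (Nogo-/-) and 6.89, 6.84 and 6.71 FPKM in Samples 1 to 3 (Nogo+/+), with little spread within either group. Its log2 fold change was −0.29 (standard error 0.06, adjusted p = 0.0403 from limma), and the call was lost in all 6 leave-one-out fits and without quantile normalization (adjusted p = 0.0619). *Tob2*, an antiproliferative gene, varied among the Nogo-/- muscles, with 39.3, 11.7 and 51.0 FPKM against 14.3, 14.2 and 17.6 FPKM in Nogo+/+ muscles, and did not pass (log2 fold change 0.83, adjusted p = 0.348).

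Of 14 BMP target genes in the table, out of 23 listed, *Id1* rose and 13 missed the threshold (1.89% of all genes rose), with a median log2 fold change of −0.07 for the list, beside −0.0067 for all genes. *Atoh8*, a BMP target of endothelial cells, had 3.19, 3.93 and 2.95 FPKM in Nogo-/- and 2.55, 2.62 and 2.00 FPKM in Nogo+/+ muscles (log2 fold change 0.33, adjusted p = 0.156 from limma). *Msx1*, a homeobox target, had 1.79, 2.00 and 1.88 FPKM in Nogo-/- and 2.96, 2.49 and 2.18 FPKM in Nogo+/+ muscles (log2 fold change −0.32, adjusted p = 0.132). *Hes1*, *Hey1* and *Gata2* were at −0.31, 0.16 and 0.09, with overlapping groups. *Fbxo30*, which encodes a ubiquitin ligase that BMP signaling holds down in muscle, was at −0.09 (adjusted p = 0.629). The groups did not overlap for 6 of the 14 genes, 3 of them higher and 3 lower, against 25.9% of all genes, and 6 had an unadjusted p under 0.05, against 20.5% of all genes. Both counts include *Id1* and *Id2*, described above, and are no separate observation for these genes.

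Among 14 targets of TGF-β and SMAD3, *Ccn2* rose, none fell and 13 missed the threshold. *Ccn2*, which encodes a matricellular growth factor, had 35.7, 20.3 and 31.2 FPKM in Nogo-/- and 13.2, 13.5 and 15.1 FPKM in Nogo+/+ muscles (log2 fold change 0.93, standard error 0.18, adjusted p = 0.0245 from limma). The groups did not overlap, and Sample 5 was the lowest of the Nogo-/- muscles, as it was for *Id1*. Of the 6 leave-one-out fits *Ccn2* passed only in the one without Sample 5 (adjusted p = 7.40e-04), and it did not pass in limma without a trend (adjusted p = 0.0591). The collagens *Col1a1*, *Col1a2* and *Col3a1*, also in this list, did not pass, and the median of the list was −0.05, beside −0.0067 for all genes.

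The proteins with which IDs interact were also examined at the level of their genes. Of 12 measured genes of E proteins and of their tissue-specific helix-loop-helix partners, 2 fell and none rose. *Myod1*, the gene of the myogenic factor that IDs keep from its E protein partners, had 9.36, 7.38 and 11.1 FPKM in Samples 4 to 6 (Nogo-/-) and 15.5, 16.0 and 16.2 FPKM in Samples 1 to 3 (Nogo+/+). The groups did not overlap, and the log2 fold change was −0.78 (standard error 0.13, adjusted p = 0.0146 from limma). *Tcf3*, which encodes the E proteins E12 and E47, had 7.64, 7.49 and 7.00 FPKM in Nogo-/- and 8.67, 9.23 and 9.18 FPKM in Nogo+/+ muscles (log2 fold change −0.30, standard error 0.06, adjusted p = 0.0339). The other E protein genes *Tcf12* and *Tcf4* were at −0.15 (adjusted p = 0.313) and −0.14 (adjusted p = 0.237), and *Myf6*, the most abundant myogenic factor here, at 0.28 (adjusted p = 0.0944). *Myod1* passed in 2 of the 6 leave-one-out fits, those without Sample 5 or 6, and *Tcf3* in none of them. The call of *Tcf3* was also lost without quantile normalization, at −0.26 (adjusted p = 0.0699).

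The genes whose levels across the 6 libraries were most like those of *Id1* lay outside the pathway. Likeness was taken as the root mean square difference between log2 profiles centered on their mean, and predicted genes were left out. The closest were *Mt1* (0.119), a metallothionein, *Adh1* (0.124), an alcohol dehydrogenase, *Ucp3* (0.128), a mitochondrial carrier, *Tsc22d3* (0.128), a leucine zipper protein, and *Tcim* (0.128). Each was higher in every Nogo-/- muscle, with log2 fold changes of 0.81 to 0.98. This follows from the choice, as the profile of *Id1* holds the difference between genotypes, and is no separate result. *Mt1*, for instance, had 43.5, 42.1 and 58.6 FPKM in Nogo-/- and 25.7, 21.2 and 22.4 FPKM in Nogo+/+ muscles. Among the 3 Nogo-/- muscles, *Mt1* and *Tsc22d3*, like *Id1*, were highest in Sample 6 and lowest in Sample 5. The other genes of the 5 did not share this order, with *Adh1* and *Tcim* highest and *Ucp3* lowest in Sample 4. The nearest of the other 9 genes was *Id3*, at 0.334 and rank 225 of 12353, with *Id1* itself as the first. *Bmpr1a* followed at rank 4166, and *Smad3*, which moved in the opposite direction, was at rank 11837. These ranks largely restate the log2 fold changes.

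**Figure D4:**
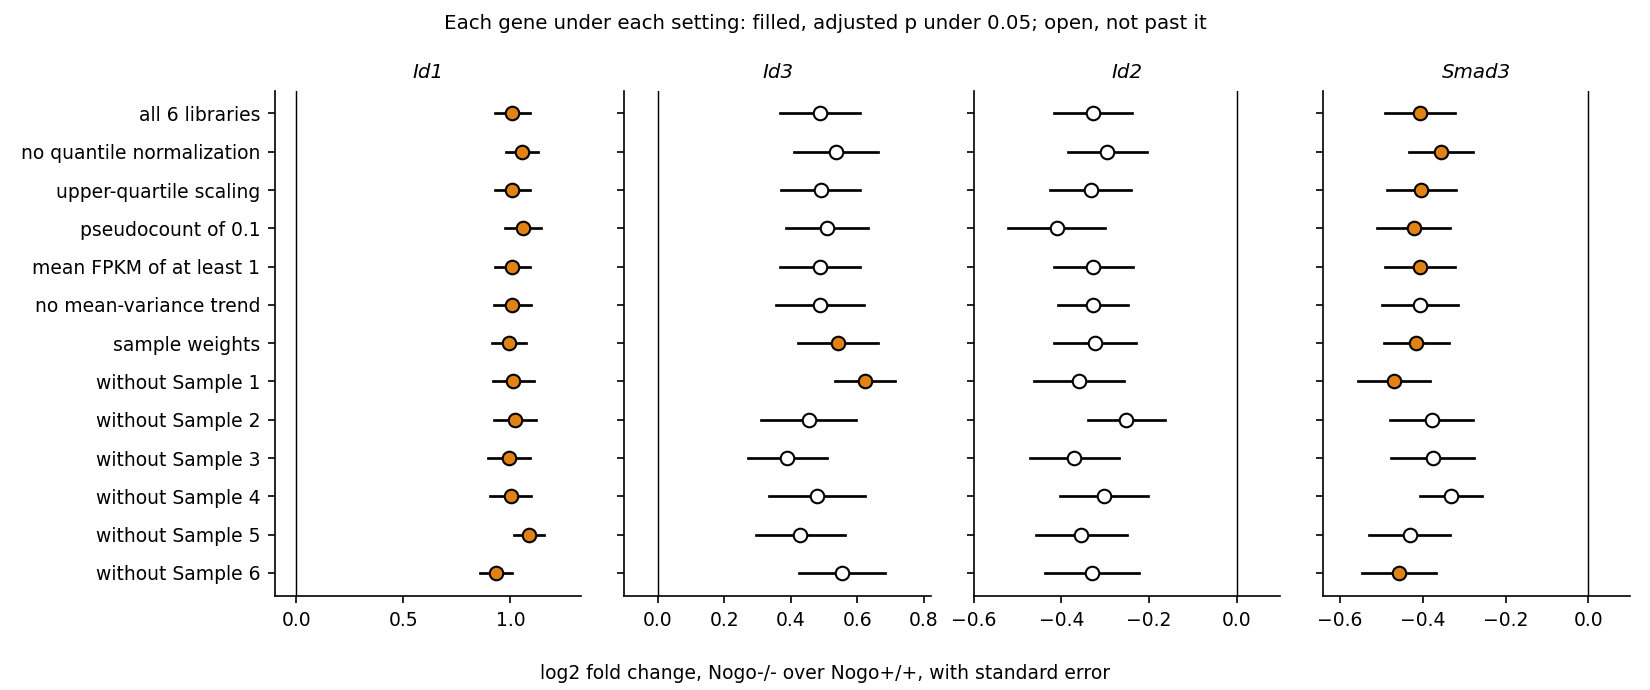
Log2 fold change, Nogo-/- over Nogo+/+ (horizontal axes), of *Id1*, *Id3*, *Id2* and *Smad3* under each setting (rows), with the standard error as a line, filled where the adjusted p was under 0.05 and open otherwise. *Id1* is filled in every row, *Id3* only with sample weights and without Sample 1, *Id2* in none, and *Smad3* is open without a mean-variance trend and without Sample 2, 3, 4 or 5.

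Markers of other cell types were read beside these results, since *Id1*, *Id3*, *Smad6* and *Atoh8* are known from endothelium. Of 11 endothelial markers, 6 fell (*Cldn5*, *Kdr*, *Emcn*, *Cdh5*, *Pecam1* and *Tek*), beside 2.75% of all genes. The other 5 missed the threshold, 1 of them with FPKM that were higher in every Nogo-/- muscle. The summed level of the 11 markers was 196 to 235 FPKM in Nogo-/- and 262 to 293 FPKM in Nogo+/+ muscles. *Kdr*, the gene of VEGF receptor 2, had 8.90, 7.86 and 6.13 FPKM in Nogo-/- and 14.9, 14.2 and 15.2 FPKM in Nogo+/+ muscles (log2 fold change −0.92, adjusted p = 0.00192 from limma). Of 7 mural cell markers 2 fell and none rose, beside 2.75% of all genes that fell, with sums of 173 to 210 FPKM in Nogo-/- and 227 to 235 FPKM in Nogo+/+ muscles. None of the 8 adipocyte, 8 fibroblast, 8 macrophage, 8 skin or 9 muscle fiber markers passed. At an unadjusted p under 0.05 there were 5 adipocyte markers and none of the others, against 20.5% of all genes. The keratins *Krt1*, *Krt5* and *Krt14* were listed at 0 in Sample 1. The adipocyte sum was 927, 591 and 482 FPKM in Samples 4 to 6 (Nogo-/-) and 417 to 502 FPKM in Nogo+/+ muscles. The fibroblast sum was 444 to 651 FPKM in Nogo-/- and 501 to 530 FPKM in Nogo+/+ muscles, and the macrophage sum was 72.1 to 117 and 77.7 to 120 FPKM in Nogo-/- and Nogo+/+ muscles. Of 6 satellite cell markers, 3 were in the table and *Heyl*, which mural cells also express, fell. *Vcam1* and *Chodl* did not pass but were higher in every Nogo-/- than in every Nogo+/+ muscle, as were 1959 of all 12353 genes. The defining markers *Pax7*, *Myf5* and *Calcr* were not among the genes of the table. The part of these cell types in the values of the 10 genes was not tested. All 8 adipocyte markers had a log2 fold change above 0 (median 0.57), 5 of them without overlap of the groups. Of all 12353 genes, 5919 had a log2 fold change above 0 and 1959 were higher without overlap. Without Sample 4, which had the highest adipocyte sum, the log2 fold change of *Id1* was 1.00 (adjusted p = 0.00395 from limma). That fit still held Sample 5, whose adipocyte sum of 591 FPKM was above those of all Nogo+/+ muscles. Whether fat content bears on *Id1* was not tested.

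**Figure D5:**
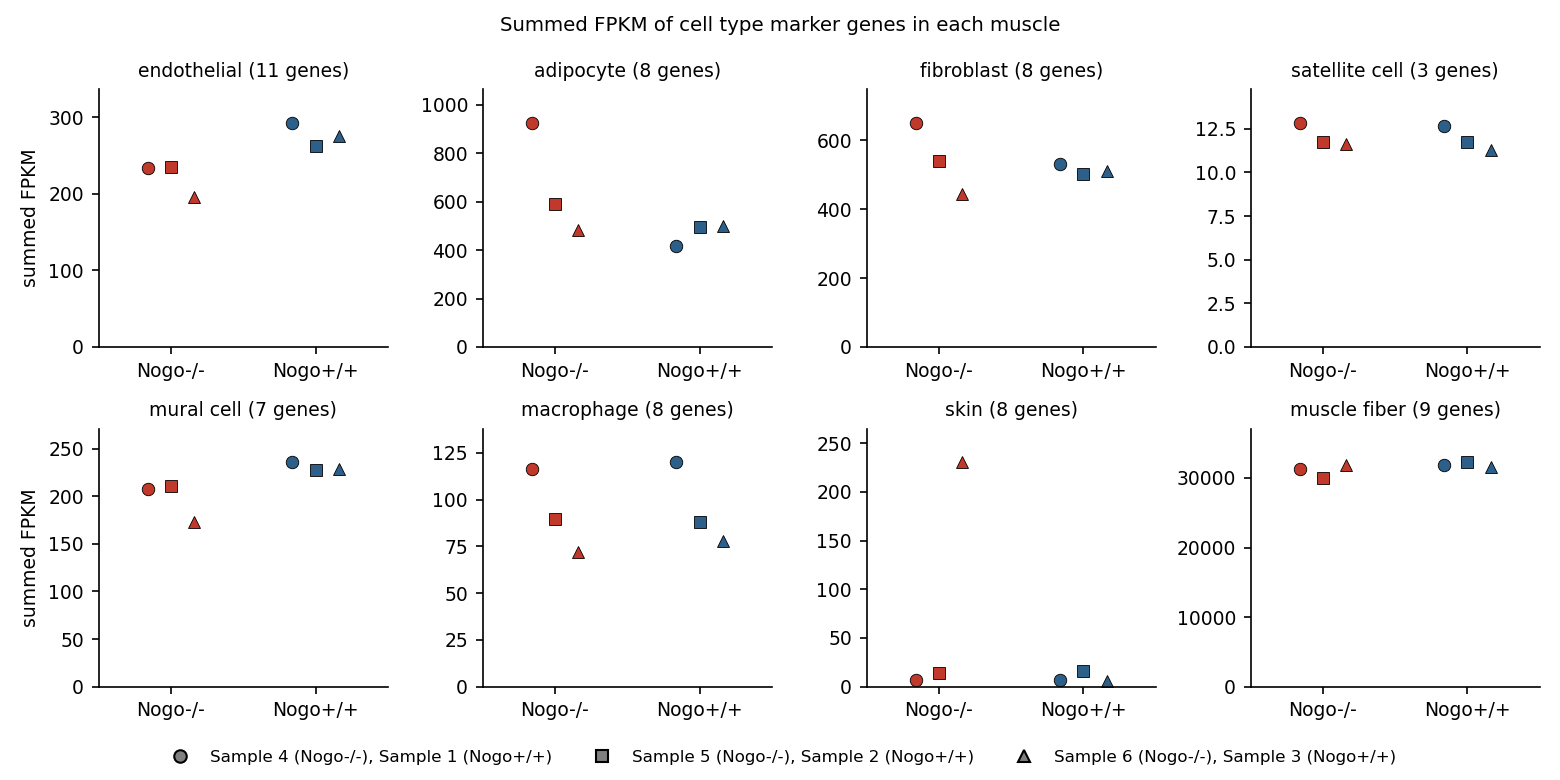
Summed FPKM of marker genes of 8 cell types (vertical axes, each from 0) in single muscles, with Nogo-/- in red on the left and Nogo+/+ in blue on the right. The endothelial sums are 196 to 235 FPKM in Nogo-/- and 262 to 293 FPKM in Nogo+/+ muscles, and the skin sum of 230 FPKM belongs to Sample 6.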

How the data were processed

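Stranded poly(A) libraries of gastrocnemius from 3 Nogo-/- and 3 Nogo+/+ mice were sequenced. Per the study's methods and the submitters' notes on processing, the authors used CASAVA 1.8.2, cutadapt 1.4.2, STAR 2.6.1 and Cufflinks 2.2.1 on GRCm38.p6. The deposited unit is FPKM, kept by the authors where a gene reached 1 FPKM in any library. The 6 further columns of normalized values were not used. Genotypes of the numbered columns follow the study's own heading for them. Cufflinks shares fragments between isoforms, and whether it used strand is not given in the sources used here. Exons of *Bmpr1a* and *Smad5* overlap those of noncoding genes, *Bmpr1a* on the opposite strand.

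FPKM were quantile-normalized over 12353 genes, put on the log2(FPKM + 1) scale, which understates changes of low genes, and compared with limma 3.58.1 in R 4.3.3 (mean-variance trend, no covariates). Benjamini-Hochberg adjustment covered all genes (threshold 0.05). The script was tested on simulated data. There it recovered 34 of 67 genes with an added log2 difference of 0.5, 60 of 67 with 1 and 65 of 66 with 2. It also made 17 false calls, so that small differences can be missed and single calls can be false. Symbols, matched for 12347 genes, and coordinates came from GENCODE M21 (GRCm38), and promoters from RefSeq (GRCm38.p6). The printed promoters overlap no GENCODE exon. Fragments per library were estimated from genes with 1 transcript, whose low FPKM lay within 0.1 of a whole number of fragments in 95.1% to 96.3% of cases against 20% by chance.

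The genes, lists and tests were chosen with earlier results of these data known, so that the rise of *Id1* was known beforehand and list counts are descriptions. Some genes are not reported here and were taken out of the lists after their values were seen. Named genes are the 10 genes, *Rtn4*, every gene of the 8 lists past the threshold or else the 3 with the smallest p, and the 5 genes most like *Id1*. Other genes were named after their values were seen. Alternatives were no quantile normalization, upper-quartile scaling, a pseudocount of 0.1, removal of genes with a mean FPKM under 1, no trend, sample weights and leaving out each mouse. Python 3.11.15 (pandas 2.3.3, NumPy 2.4.6) served for the tables and matplotlib 3.10.9 for the figures.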

Additional observations from a re-analysis of the deposited data

How the results depend on the processing

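*Id1* passed under all 6 other settings and all 6 fits that leave out a mouse. For *Smad3* the log2 fold change was −0.41 (adjusted p = 0.0725 from limma) without the trend, which left 1 of the 10 genes changed, and for *Id3* it was 0.54 (adjusted p = 0.0395) with sample weights. *Bmpr2* changed sign without quantile normalization, at 0.017 (adjusted p = 0.918). The cause of these shifts was not tested. Without quantile normalization 56.3% of changed genes were higher in Nogo-/- muscles in place of 40.7%.

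Without 1 of the mice there were 188 to 434 changed genes (83 to 196 higher and 105 to 238 lower), with fewest without Sample 2, and 1 to 3 changed genes among the 10. Over these fits the log2 fold change ranged from 0.93 to 1.09 for *Id1*, from −0.37 to −0.25 for *Id2*, from 0.39 to 0.62 for *Id3*, from −0.16 to 0.021 for *Smad1*, from −0.47 to −0.33 for *Smad3*, from −0.14 to −0.096 for *Smad5*, from −0.24 to −0.14 for *Smad6*, from −0.13 to 0.011 for *Smad7*, from −0.0091 to 0.096 for *Bmpr1a* and from −0.067 to 0.0044 for *Bmpr2*. No paired analysis was possible because the columns carry no replicate numbers. *Id2*, *Smad6* and *Smad7* rest on the fewest fragments of the 10 genes.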
